A study of Mus musculus with 33 samples.

Results

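The genes described here encode the proteins of the mitochondrial ribosome. They were taken by name, as every gene whose mouse symbol begins with Mrpl or Mrps followed by a digit, with the pseudogenes left out. This gave 78 of the 56748 gene IDs in the count table, and 77 of them passed a filter on low counts that 20464 genes passed in all. Of the 78, 51 encode large subunit proteins, 26 encode small subunit proteins, and Mrps36 stands alone because its product is now known as a subunit of the 2-oxoglutarate dehydrogenase complex.

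The study asks how epigenetic regulation bears on the fate choices of blood stem cells, and sequenced polyadenylated RNA of 11 populations from mouse bone marrow in 33 libraries, 3 for each. The populations were long-term and short-term stem cells (LT-HSC, ST-HSC), multipotent progenitors (MPP), 4 committed progenitors, and 3 mature fractions named by a surface protein (CD3e T cells, B220+ cells and CD11b+ cells). The committed progenitors were common myeloid cells (CMP), the granulocyte-macrophage (GMP) and megakaryocyte-erythroid (MEP) progenitors downstream of them, and common lymphoid progenitors (CLP). Whole bone marrow (BM) carried no sort in its labels. Stem cells and progenitors were enriched by removing lineage-positive cells before the sort, and the mature fractions were sorted after staining. No population carried a genotype, a treatment or a dose in the labels, and the sources used here give no strain, age or sort gate. The labels do not say that the 3 libraries of a population came from separate animals, so p-values measure the spread between libraries, which may be technical.

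Mitochondria keep a ribosome of their own, which descends from a bacterial ribosome and translates only the few messages carried by mitochondrial DNA, all of them encoding membrane subunits of the respiratory chain and the ATP synthase. Its RNAs are transcribed inside the mitochondrion, whereas its proteins are encoded in the nucleus, made in the cytosol and imported. Some of these proteins have bacterial counterparts and others are particular to mitochondria. Erythroid cells need mitochondria for heme synthesis, while mature neutrophils are known to hold few mitochondria and to rely largely on glycolysis.

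The counts behind the values were large. Library totals ran from 11997186 to 32022325 counts, and the 78 genes together held from 20519 to 212436 of them. Levels are given as CPM, counts divided by the library total and brought to a common scale with TMM factors (trimmed mean of M-values), which set the bulk of genes level between libraries. The mean factor of a population ran from 0.591 in GMP to 1.64 in ST-HSC, so a direction can depend on it. Of 671 member changes that passed the test over 10 comparisons between populations, 185 took the other sign when scaled by library size alone. Of these, 60 lay between ST-HSC and MPP, 30 between MPP and CMP, 53 between CMP and GMP and 17 between CMP and MEP. Shares of all genes tested are given below on the TMM scale only. Defining markers were present in most sorts, with stem cell markers at 382 CPM in sum in LT-HSC and 385 in ST-HSC, B lineage markers at 8286 in B220+ cells and T lineage markers at 2630 in CD3e T cells. MEP libraries held 3998 CPM of erythroid markers, below the 5634 of CD3e T cells and the 4824 of B220+ cells. They held 41.3 CPM of megakaryocyte markers, of which Gp1bb was at 0 in every population but LT-HSC. CLP libraries held few lymphoid markers, as described with that comparison. Because each library holds RNA of many cells, fewer cells of a type and less RNA per cell cannot be told apart.

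Some of the proximal promoters of the genes held the same short sequences. RefSeq on GRCm38.p6 gave a window from 250 bases before to 50 bases after the start for 69 of the 78 genes, 75 windows in all, and both strands were searched for 5 motifs. An ETS core (CCGGAAG) lay in a window of 26 of the 69 genes (37.7%), against 9.93% of the 27025 genes with a window outside that chromosome. The YY1 motif (AAGATGGCG) was found in 8 genes (11.6%, against 1.64%) and the NRF-1 palindrome (GCGCA followed by its complement TGCGC) in 3 (4.35%, against 1.07%). A GC box bound by Sp1 (GGGGCGGGG) lay in 13 genes (18.8%, against 12.9%), and a TATA box (TATAAA) in 5 (7.25%, against 15.7%). The background includes genes that did not pass the filter on low counts, and no comparison with expressed genes alone was made. The motifs do not overlap one another in the windows printed here, and a match is a description of letters, not a site of binding. These 4 windows are shown because the first 3 hold the motifs and differ in how their genes behaved, and the fourth, of the gene that varied most, holds none of the 5. Capitals mark the matches, CCGGAAG or its complement CTTCCGG for ETS and AAGATGGCG for YY1.
Mrps18a promoter, chr17:46110754-46111053, + strand: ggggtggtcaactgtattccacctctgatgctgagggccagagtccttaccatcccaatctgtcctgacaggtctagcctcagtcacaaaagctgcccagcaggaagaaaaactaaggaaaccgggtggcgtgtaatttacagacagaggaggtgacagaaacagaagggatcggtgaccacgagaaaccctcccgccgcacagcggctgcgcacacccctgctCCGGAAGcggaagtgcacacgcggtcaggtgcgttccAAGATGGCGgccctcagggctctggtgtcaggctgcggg
Mrpl52 promoter, chr14:54426659-54426958, + strand: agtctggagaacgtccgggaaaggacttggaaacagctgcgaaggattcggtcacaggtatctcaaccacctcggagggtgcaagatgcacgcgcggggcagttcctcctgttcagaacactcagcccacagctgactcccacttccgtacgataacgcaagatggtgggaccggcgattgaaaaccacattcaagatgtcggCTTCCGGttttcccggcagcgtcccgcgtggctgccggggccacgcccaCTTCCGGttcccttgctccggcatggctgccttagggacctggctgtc
Mrpl33 promoter, chr5:31613701-31614000, + strand: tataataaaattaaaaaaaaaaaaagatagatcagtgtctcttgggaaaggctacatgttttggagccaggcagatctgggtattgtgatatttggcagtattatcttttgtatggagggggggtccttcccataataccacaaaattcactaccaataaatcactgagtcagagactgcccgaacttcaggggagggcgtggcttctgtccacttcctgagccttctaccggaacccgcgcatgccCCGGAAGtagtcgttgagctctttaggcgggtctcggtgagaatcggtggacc
Mrpl12 promoter, chr11:120484387-120484686, + strand: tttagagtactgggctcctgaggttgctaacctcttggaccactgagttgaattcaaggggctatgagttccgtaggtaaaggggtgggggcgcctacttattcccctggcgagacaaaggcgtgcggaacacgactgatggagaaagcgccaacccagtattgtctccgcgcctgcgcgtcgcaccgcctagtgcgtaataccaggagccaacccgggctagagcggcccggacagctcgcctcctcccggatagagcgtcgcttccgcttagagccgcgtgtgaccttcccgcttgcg

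The Mrps18a window holds an ETS core 26 bases before the start and a YY1 motif just after it. In Mrpl52 an ETS core lies 47 bases before the start and another just after it, and the single ETS core of Mrpl33 lies across the start. Genes with and without an ETS core were set side by side, with no test. Between MEP and CMP the median log2 fold change was 1.25 in the 25 tested genes with an ETS core and 1.23 in the 43 with a window but without one. Between B220+ cells and CLP the medians were 0.91 and 0.75.

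Across the populations the genes behaved largely as a block, with MEP at the top. Their summed level was 9404 ± 274 CPM (SD, n = 3) in MEP and 7241 ± 185 in GMP, and the next population, MPP, reached 3945 ± 52.4. It was 3692 ± 30.3 CPM in CMP, 3350 ± 16.8 in B220+ cells, 3000.0 ± 15.2 in CD3e T cells and 2838 ± 37.2 in CD11b+ cells. The lowest sums were 2754 ± 8.67 CPM in ST-HSC, 2560 ± 10.9 in LT-HSC, 2338 ± 7.81 in BM and 1983 ± 48.8 in CLP. In this order no library of a population overlapped a library of its neighbour.

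As a plain share of all counts, with no scaling between libraries, the order was partly different. MEP again led with 0.662% ± 0.00087, but CMP (0.490% ± 0.00212) and ST-HSC (0.452% ± 0.00276) then stood above GMP (0.427% ± 0.000667). The lowest shares were 0.247% ± 0.00315 in CLP, 0.206% ± 0.00213 in CD11b+ cells and 0.170% ± 0.00126 in BM. Libraries differ in how much a few abundant genes take. The 10 most abundant genes held 15.0% of the counts in GMP, 12.1% in MEP and 8.82% in CMP. MEP was highest on both measures, and CLP and BM were among the lowest 3 on both. Other places depended on the scaling. GMP and MPP stood above CMP in CPM and below it as a share, where MPP held 0.326%, and ST-HSC stood below CD11b+ cells, CD3e T cells and B220+ cells in CPM and above them as a share.

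**Figure D1:**
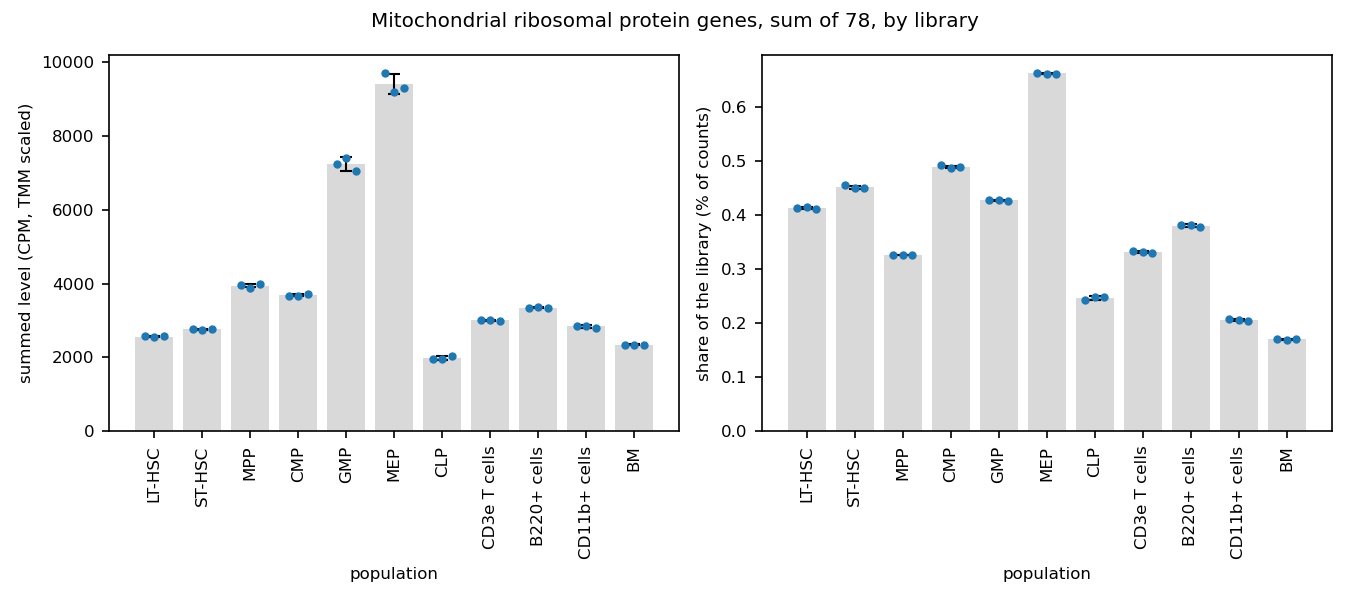
Summed level of the 78 genes by population, as TMM-scaled CPM (left) and as percent of all counts (right). Bars are means, lines the SD and points the 3 libraries. MEP is highest on both axes, while GMP lies above CMP on the left (7241 against 3692 CPM) and below it on the right (0.427% against 0.490%).

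Taken gene by gene, 65 of the 77 tested genes had their highest mean level in MEP and 10 in GMP. The remaining members were Mrpl24, highest in CLP, and Mrpl33, highest in CD11b+ cells. GMP came second for 60 genes. The lowest population was CLP for 42 genes, CD11b+ cells for 15, BM for 11 and LT-HSC for 7. These ranks are on the TMM scale only. How many of all genes tested were highest or lowest in each population was not counted, so the ranks cannot be called particular to the members. The highest population exceeded the lowest by 1.92-fold to 20.01-fold, with a median of 5.37-fold. All 77 genes differed somewhere among the populations (edgeR joint test, adjusted p below 0.05), as did 99.9% of all genes tested, so that count says little about these genes.

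**Figure D2:**
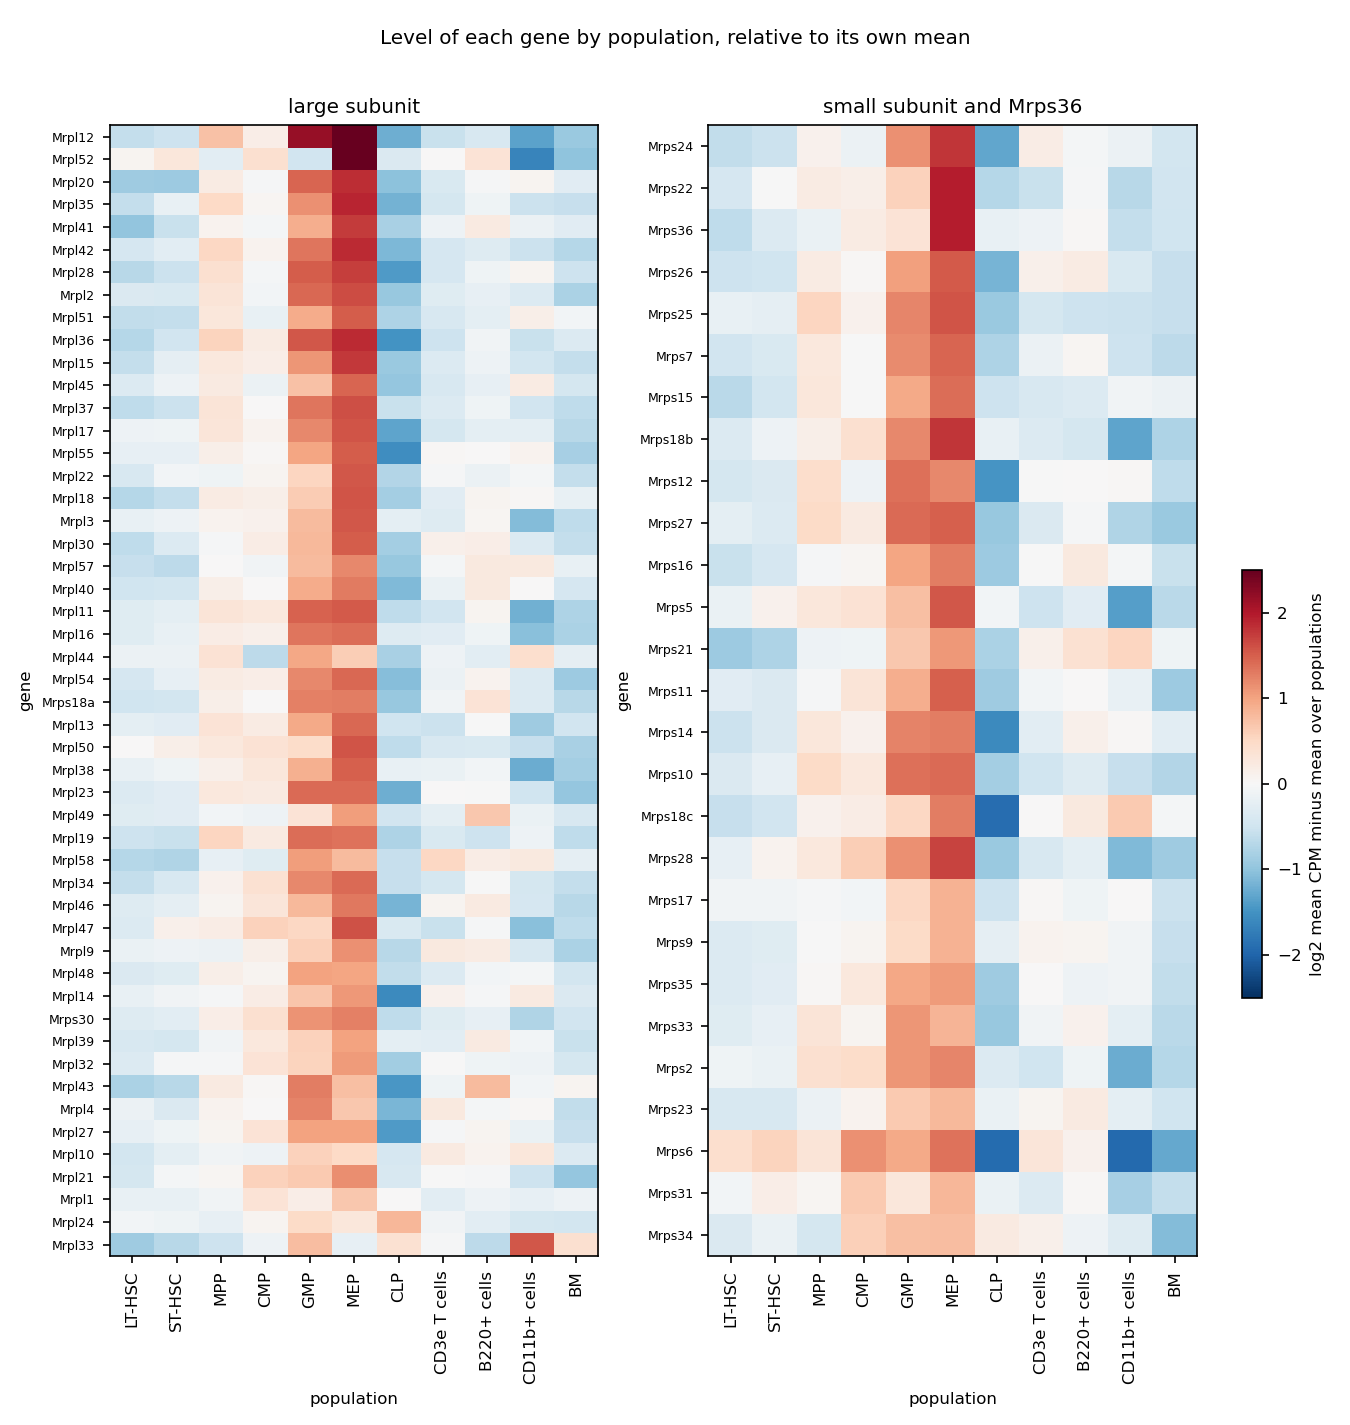
Mean level of each of the 77 tested genes in the 11 populations, as log2 CPM minus the gene's own mean over populations (red above, blue below), with large subunit genes on the left and small subunit genes with Mrps36 on the right. Rows run by the difference between MEP and CMP. The MEP column is red for nearly all genes, and Mrpl33 and Mrpl24 stand out at the foot of the left panel, in CD11b+ cells and CLP.

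The spread of a gene over the populations was measured as the SD of its log2 population means. It was 0.72 at the median of the 76 members at 10 CPM or more, against 0.78 for all 9317 genes at that level, and the mean SD between replicate libraries of a population was 0.051 at the median member. The most variable members were Mrpl12 (SD 1.29), Mrps6 (1.18), Mrpl52 (1.08), Mrpl36 (0.997) and Mrpl28 (0.93). The least variable were Mrpl1 (0.29), Mrpl10 (0.37), Mrpl24 (0.40), Mrps9 (0.40) and Mrps17 (0.40). Per kilobase of transcript, the scale on which genes can be compared, the leaders in MEP were Mrpl20 at 480 ± 12.04 CPM per kb, Mrpl12 at 466 ± 3.33 and Mrpl42 at 455 ± 11.5. In LT-HSC the leader was Mrpl4 at 105 ± 3.41 CPM per kb. Large subunit genes stood above small subunit genes on this scale in every population, with a ratio of mean levels between 1.25 ± 0.0214 in CLP and 1.61 ± 0.0253 in MEP. The ratio was 1.54 ± 0.0136 in GMP and 1.32 ± 0.0125 in CMP, and the libraries of MEP and GMP lay above those of all other populations.

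The stalk of the large subunit is the arm that recruits translation factors, and its proteins Mrpl12, Mrpl10 and Mrpl11 did not share a range. Mrpl12 (ENSMUSG00000039640.8), which also binds the mitochondrial RNA polymerase in human cells, measured 618, 613 and 609 CPM in the MEP libraries and 487, 522 and 482 in GMP. It measured 120, 123 and 125 CPM in CMP, and 44.1, 45.3 and 40.4 in CD11b+ cells. These 4 populations did not overlap. Mrpl12 alone made up 6.87% of the summed member level in GMP and 6.52% in MEP, against 2.83% in LT-HSC.

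Mrpl10, the base to which the stalk proteins attach, kept between 33.5 ± 1.35 CPM in LT-HSC and 69.4 ± 3.65 in GMP, and its GMP and MEP levels (65.8 ± 1.13) did not differ by test (adjusted p = 0.072, edgeR). Mrpl11, at the root of the stalk, was 82.2 CPM in GMP, 85.6 in MEP and 12.9 in CD11b+ cells. From GMP to CD11b+ cells the log2 fold change was -3.52 ± 0.036 (SE) for Mrpl12, -2.67 ± 0.062 for Mrpl11 and -0.30 ± 0.045 for Mrpl10. All 3 passed the test, but Mrpl10 moved 0.003 upward when scaled by library size alone.

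**Figure D3:**
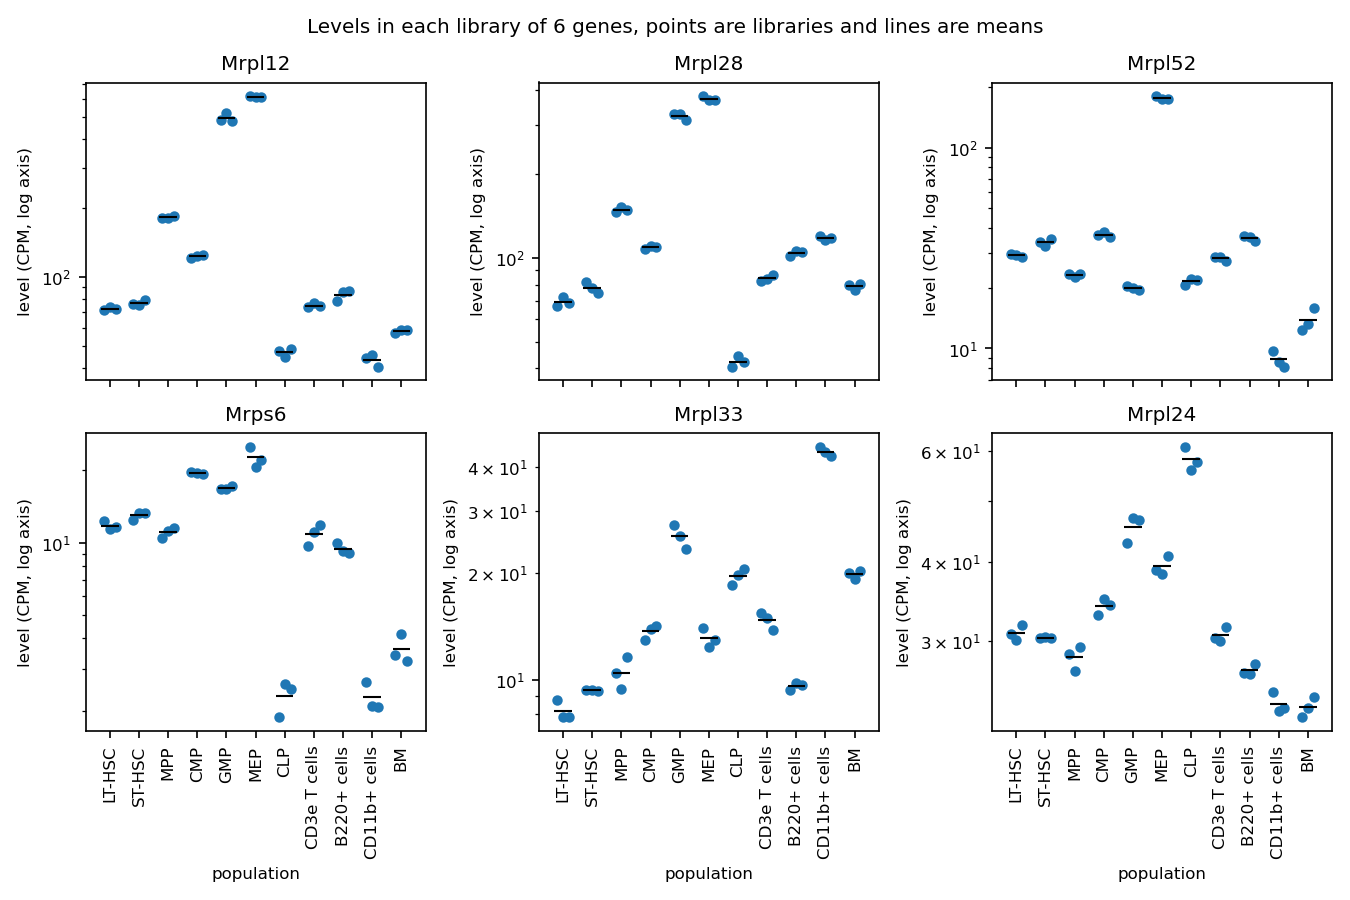
Level of 6 genes in each library, in CPM on a log axis, with lines at the population means. Mrpl12 and Mrpl28 peak in MEP and GMP, Mrpl52 peaks in MEP alone, Mrps6 is near 2.3 CPM in CLP and CD11b+ cells, Mrpl33 is highest in CD11b+ cells and Mrpl24 in CLP.

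Among proteins near the reaction centres, Mrps12 lies at the decoding centre of the small subunit, and Mrpl2 and Mrpl3 reach toward the site of peptide bond formation. Mrps12 was 110 CPM in GMP, 96.7 in MEP, 39.0 in CMP and 15.3 in CLP. Mrpl2 was 175 CPM in MEP, 153 in GMP and 29.1 in CLP, and Mrpl3 was 158 in MEP, 93.2 in GMP and 25.2 in CD11b+ cells. Mrpl58, a peptidyl-tRNA hydrolase that frees stalled chains, was highest in GMP (48.3 CPM) and lowest in ST-HSC (13.9). Mrpl44, which carries a ribonuclease fold, measured 72.2, 79.3 and 71.0 CPM in GMP, 59.4, 56.5 and 59.3 in MEP and 24.2, 23.9 and 24.6 in CMP. Mrps12, Mrpl58 and Mrpl44 were thus higher in GMP than in MEP, unlike most members. That order holds for Mrpl44 under library size alone, whereas Mrps12 and Mrpl58 turn slightly, to log2 differences of 0.069 and 0.007 toward MEP, and all 3 lie higher in MEP once a trend on transcript length and GC content is taken out. Members are short, with a median transcript of 1056 bases against 1868 for all genes tested, so this trend bears on them.

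The paralogs Mrps18a, Mrps18b and Mrps18c, of which Mrps18a sits in the large subunit, differed from one another in the mature cells. Mrps18c measured 26.3, 23.1 and 23.6 CPM in CD11b+ cells and 19.9, 24.5 and 21.5 in GMP, an overlap, and its difference did not pass the test (log2 fold change 0.12, adjusted p = 0.19). Mrps18b fell between the same populations by 2.49 on the log2 scale and Mrps18a by 1.60. In CLP, Mrps18c was only 3.12, 4.65 and 4.58 CPM, its lowest values, while Mrps18b stood at 13.4 CPM, above the B220+ mean of 11.3. In the annotation used here, 30.5% of the exon bases of Mrps18b overlap an antisense gene and 23.2% of those of Mrps18c overlap another gene on the same strand, so their counts are less certain.

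Mrpl41 and Mrps30, which have been linked to apoptosis, followed the common order. Mrpl41 was 109 CPM in MEP, 60.7 in GMP and 16.4 in LT-HSC, and Mrps30 was 86.6 in MEP, 79.0 in GMP and 21.4 in CD11b+ cells. Mrps36 showed the second largest rise from GMP to MEP. It measured 93.8, 92.1 and 91.1 CPM in MEP against 29.2, 31.7 and 29.7 in GMP, and 26.3, 29.1 and 26.8 in CMP. Every other population mean lay between 15.2 and 24.2 CPM, so no other population reached its MEP level.

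Stem cells came first among the comparisons between neighbouring populations, and there the genes hardly moved. From LT-HSC to ST-HSC, 37 of 77 members were higher (all genes tested, 29.8%), 1 was lower (all genes, 34.1%) and 39 did not pass. The median log2 fold change was 0.10, against -0.01 for all genes tested, and with the trend on length and GC content taken out 10 members were lower. The changes that led were Mrpl47 (1.37-fold), Mrps22 (1.33-fold) and Mrpl41 (1.32-fold). The only fall was Mrpl4, which lines the peptide exit tunnel, at 1.15-fold. The stromal marker sum was 3009 CPM in LT-HSC and 133 in ST-HSC, with all 4 markers at 1 CPM or more in LT-HSC. The megakaryocyte marker sum was 1112 CPM in LT-HSC and 45.2 in ST-HSC. Gp1bb was at 0 in ST-HSC, as in every population but LT-HSC. The part of either list in the result was not tested.

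From ST-HSC to MPP, 64 of 77 members were higher (all genes tested, 33.6%) and 2 were lower (all genes, 40.0%) on the TMM scale, but 3 were higher and 71 lower when scaled by library size alone. The median was 0.43 against -0.11 for all genes tested, and with library size alone it was -0.57 against -1.09. Scaling moves all genes of a library alike, so the gap of 0.53 log2 units could hardly change. With the trend on length and GC content taken out, 38 were higher and 25 lower. Mrpl12 rose 2.37-fold (76.7 ± 1.83 to 182 ± 1.93 CPM), Mrpl20 2.17-fold and Mrpl19 2.14-fold, and Mrpl12 was also higher by library size alone (log2 0.26). Mrpl52 (1.45-fold) and Mrps6 (1.17-fold) fell under both scalings. MPP libraries also carried neutrophil markers at 29528 CPM in sum (372 in ST-HSC) and plasma cell markers at 7959 CPM (263 in ST-HSC, with Mzb1 at 0). Basophil, mast cell and eosinophil markers summed to 8746 CPM in MPP and 28.6 in ST-HSC, megakaryocyte markers to 531 and 45.2, and 10 mitosis genes to 2154 and 769. The part of these lists in the result was not tested.

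From MPP to CMP the genes split. On the TMM scale 26 were higher (all genes tested, 35.0%), 31 lower (all genes, 35.0%) and 20 did not pass, with a median of -0.05 against 0.01. Library size alone gave 76 higher and 1 lower, as the median of all genes moved to 0.68, and with the trend taken out 56 were higher and 13 lower. Of the members at 10 CPM or more in either population, Mrps6 (1.75-fold), Mrpl52 (1.58-fold) and Mrps31 (1.52-fold) had the largest rises on the TMM scale, and all 3 were also higher by library size alone. Below that level Mrps34 was higher by more, from 3.44 to 6.97 CPM. Mrpl44 fell 2.001-fold, from 48.6 ± 0.45 to 24.2 ± 0.35 CPM, and stayed lower by library size alone. Mrpl12 (1.48-fold) and Mrps12 (1.47-fold) were lower on the TMM scale and higher, by 0.12 and 0.13 log2 units, by library size alone. From MPP to CMP the neutrophil marker sum went from 29528 to 1149 CPM, that of basophils, mast cells and eosinophils from 8746 to 28.0, and that of plasma cells from 7959 to 281, and their part in the result was not tested.

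On the TMM scale the step from CMP to MEP gave the rise with the most members. Of 77 members 75 were higher (all genes tested, 34.1%) and 0 lower (all genes, 44.3%), and 55 were higher by 2-fold or more (all genes, 18.9%). By edgeR 0 members were lower at an unadjusted p under 0.05 too, and DESeq2 and limma-voom called 0. The member median was 1.23, against -0.25 for all genes tested. By library size alone 55 were higher and 18 lower, with a median of 0.31 against -1.17, and 3 other comparisons then had more members higher (76 from MPP to CMP, 68 from GMP to MEP and 66 from CLP to B220+ cells). Mrpl12 rose 4.99-fold (log2 2.32 ± 0.028, adjusted p = 3.6e-100). Mrpl52, a large subunit protein particular to mitochondria, rose 4.81-fold, and Mrps24 3.80-fold from 54.0 to 204 CPM. The exceptions that did not pass were Mrpl33 (13.7 and 13.1 CPM) and Mrps34 (6.97 and 7.91 CPM). Over the same step the erythroid marker sum went from 505 to 3998 CPM and that of 10 mitosis genes from 1483 to 3264, and their part in the result was not tested.

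The step from CMP to GMP had the same sign on the TMM scale but not by library size. There 71 of 77 members were higher (all genes tested, 31.8%) and 4 lower (all genes, 41.9%) with TMM, and 12 were higher and 52 lower by library size alone. The median was 0.87 against -0.22 for all genes with TMM, and -0.31 against -1.37 without. The gap, 1.08 and 1.07 log2 units, could hardly change, because scaling moves all genes of a library alike. Mrpl12 (4.05-fold), Mrpl44 (3.08-fold) and Mrpl28 (2.96-fold) were higher in both scalings. Mrpl52 was lower in both, at 20.5, 20.01 and 19.5 CPM in GMP against 36.9, 38.0 and 35.7 in CMP, as were Mrps31 and Mrps6. From CMP to GMP the neutrophil marker sum went from 1149 to 76438 CPM, that of basophils, mast cells and eosinophils from 28.0 to 3698 and that of the mitosis genes from 1483 to 2198, and their part in the result was not tested.

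MEP and GMP could be set against each other directly. MEP was higher for 57 of 77 members (all genes tested, 31.3%) and lower for 8 (all genes, 31.1%), with a median of 0.41 against 0.00. Library size alone gave 68 higher and 4 lower. Mrpl52 showed the largest member difference. It measured 181, 174 and 175 CPM in MEP, 8.83 times its GMP level (log2 3.14 ± 0.048, adjusted p = 5.1e-89, edgeR), while its other population means ran from 8.82 CPM in CD11b+ cells to 36.9 in CMP. Mrps36 (3.05-fold) and Mrps22 (2.62-fold), a small subunit protein particular to mitochondria, followed. Mrpl33 was 1.93-fold, Mrpl4 1.48-fold and Mrpl43 1.46-fold lower in MEP, and Mrpl4 turned to 0.061 log2 units higher once the trend on length and GC content was taken out. The neutrophil marker sum was 76438 CPM in GMP and 154 in MEP, and the erythroid sum 181 and 3998, and their part was not tested.

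**Figure D4:**
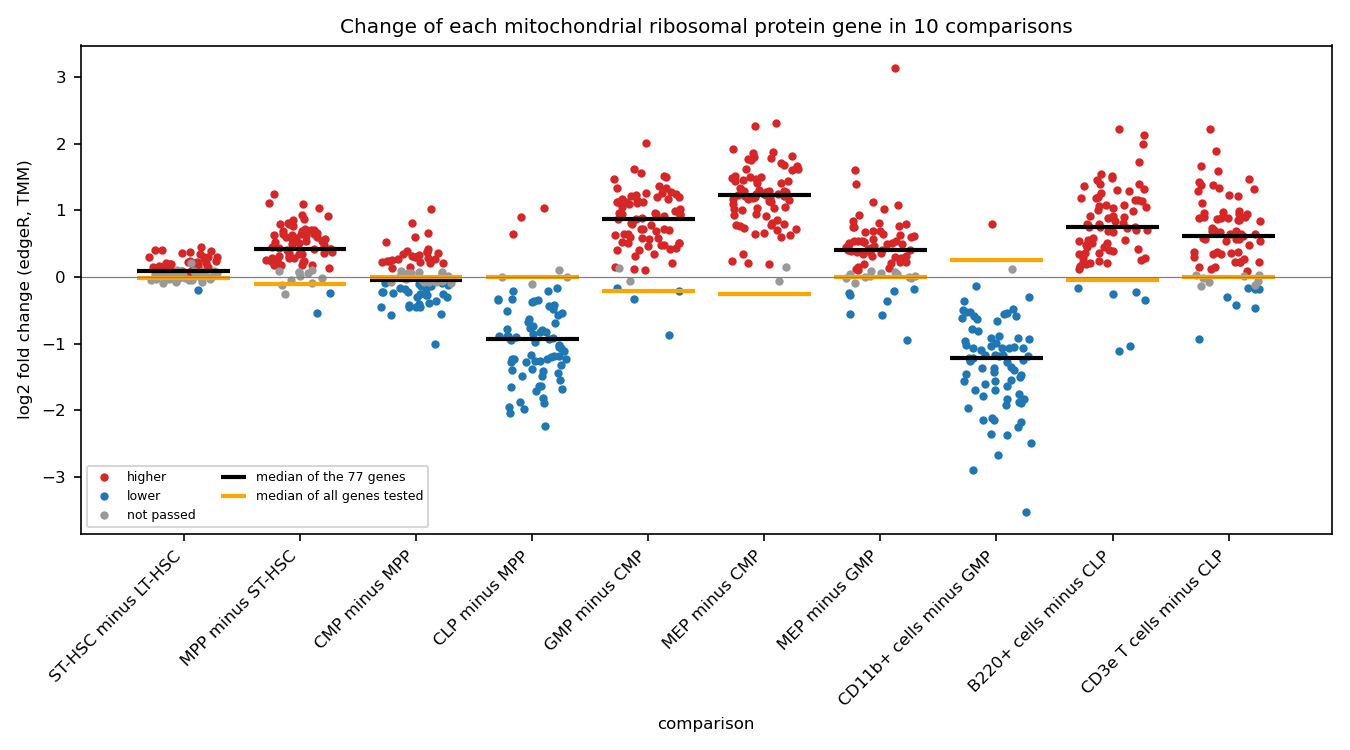
Log2 fold change of each of the 77 genes in 10 comparisons, with genes that passed higher in red, lower in blue and not passed in grey, jittered sideways. Black lines are member medians and orange lines the medians of all genes tested. Nearly all points lie above 0 between MEP and CMP (median 1.23) and below 0 between CD11b+ cells and GMP (median -1.22), with Mrpl33 at 0.79 above the latter.

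On the lymphoid side the genes were low in the progenitor and higher in the mature fractions. From MPP to CLP, 70 of 77 members were lower (all genes tested, 37.4%), 3 higher (all genes, 39.6%) and 36 were lower by 2-fold or more (all genes, 22.4%). The median was -0.93 against 0.00, and by library size alone 52 were lower and 19 higher. Mrps6 fell 4.73-fold to 2.31 ± 0.38 CPM, Mrpl36 4.13-fold to 23.6 ± 1.80 and Mrps18c 3.96-fold. The rises were Mrpl24, Mrpl33 and Mrps34. Mrpl24, a protein that binds early in large subunit assembly, measured 60.9, 56.0 and 57.6 CPM in CLP and 28.7, 26.9 and 29.3 in MPP, a 2.04-fold rise without overlap. Antisense overlap with Rrnad1 covers 26.3% of its exon bases, so part of its counts is uncertain.

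The CLP libraries carried marker sums of 9058 CPM for basophils, mast cells and eosinophils, 2003 for stroma and 4048 for mitosis, against 25.0 for the B lineage, with 3 of 6 B lineage and 2 of 5 T lineage markers at 1 CPM or more. The part of these in the CLP comparisons was not tested.

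From CLP to B220+ cells 71 of 77 members were higher (all genes tested, 39.5%) and 6 lower (all genes, 42.5%), with a median of 0.75 against -0.04. Scaled by library size alone, 66 were higher and 6 lower. Mrpl43 rose 4.66-fold from 4.7 to 22.1 CPM, Mrps18c 4.38-fold and Mrps14 3.30-fold from 26.8 to 88.5 CPM. Mrpl24 fell 2.15-fold to 27.0 ± 0.54 CPM, Mrpl33 2.05-fold to 9.59 ± 0.22 and Mrps18b 1.19-fold. Of the exon bases of Mrpl43, 33.4% overlap Twnk on the other strand, so part of its counts is uncertain. In B220+ cells the neutrophil marker sum was 9147 CPM (1430 in CLP), above the B lineage sum of 8286, and the erythroid sum was 4824 (646 in CLP). The part of these lists was not tested.

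From CLP to CD3e T cells 62 members were higher (all genes tested, 40.5%) and 7 lower (all genes, 41.7%), with a median of 0.61 against 0.00. The number lower was 15 by library size alone and 17 with the trend taken out. Mrps6 rose 4.64-fold, Mrps18c 3.69-fold and Mrpl14, at the face between the subunits, 3.19-fold. Mrpl24 (1.90-fold), Mrps5 (1.38-fold) and Mrpl33 (1.34-fold) were lower. The T lineage marker sum was 2630 CPM in these libraries, beside 13350 for neutrophil and 6283 for basophil, mast cell and eosinophil markers. Erythroid markers summed to 5634 CPM and plasma cell markers to 3690 (646 and 193 in CLP), and mitosis genes to 682 (4048 in CLP). The part of these lists was not tested.

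The opposite held on the myeloid side. From GMP to CD11b+ cells 75 of 77 members were lower (all genes tested, 32.8%) and 1 higher (all genes, 41.3%), and 53 were lower by 2-fold or more (all genes, 21.4%). The median was -1.22, against 0.25 for all genes tested, and library size alone gave 72 lower and 3 higher with a median of -0.92. Mrpl12 fell 11.5-fold (log2 -3.52, adjusted p = 1.7e-107), Mrps6 7.43-fold from 16.8 ± 0.29 to 2.28 ± 0.32 CPM, and Mrpl11 6.36-fold. Mrpl33 was the member that rose, with 45.7, 44.1 and 43.0 CPM in CD11b+ cells against 27.5, 25.5 and 23.5 in GMP, 1.73-fold. No GMP library overlapped those of CD11b+ cells. The neutrophil marker sum was 76438 CPM in GMP and 197080 in CD11b+ cells, where the B lineage sum was 233 and the T lineage sum 46.4, and 10 mitosis genes summed to 2198 and 2175 CPM. Erythroid markers summed to 181 CPM in GMP and 3367 in CD11b+ cells, and their part was not tested.

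The maturation steps of the myeloid and B lineages, from GMP to CD11b+ cells and from CLP to B220+ cells, had opposite signs. They were therefore compared within a single fit, as the log2 change of the first minus that of the second. Member counts of this difference largely repeat those signs. The B lineage marker sum was 25.0 CPM in CLP. In B220+ cells it was 8286, below the neutrophil sum of 9147, and the part of these lists was not tested. Of the 77 members, 75 had the lower value on the myeloid side (all genes tested, 32.5%) and 2 the higher (all genes, 42.1%), and 70 differed by 2-fold or more (all genes, 25.0%). The median difference was -2.17, against 0.39 for all genes tested. It was -4.89 ± 0.172 for Mrps6, -4.36 ± 0.054 for Mrpl12 and -3.57 ± 0.113 for Mrpl43. Individually, 70 members were both lower in CD11b+ cells than in GMP and higher in B220+ cells than in CLP, as were 14.2% of all genes tested. Mrpl33 went the other way by 1.83 ± 0.090 and Mrpl24 by 0.17 ± 0.072 (adjusted p = 0.028). The Mrpl24 call was lost without replicate 1 of GMP (0.14), of CLP (0.16) or of CD11b+ cells (0.16).

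The classes of members by origin moved much alike. Between MEP and CMP, 34.1% of all genes tested were higher. Of large subunit genes, 29 of 30 with a bacterial homolog were higher (median 1.25), as were all 20 tested ones particular to mitochondria (1.26). All 16 small subunit genes with a bacterial homolog were higher (1.18), as were 9 of 10 particular to mitochondria (1.03). Between CD11b+ cells and GMP the medians of the same classes were -1.42, -1.06, -1.24 and -1.32. The difference between classes was not tested. Genes of this ribosome that carry other symbols (Dap3, Chchd1, Aurkaip1, Ptcd3, Gadd45gip1) were all higher in MEP than in CMP on the TMM scale. They were also all lower in CD11b+ cells than in GMP (all genes tested, 32.8%). By library size alone Chchd1 (log2 -0.09) and Gadd45gip1 (-0.06) turned in the first comparison, and Aurkaip1 turned in the second (0.16, and 0.24 with the trend taken out). Dap3, a GTP-binding protein of the small subunit, was 357 ± 8.16 CPM in MEP and 82.6 ± 2.13 in CMP. Between B220+ cells and CLP these genes did not follow the members, with 2 higher (all genes tested, 39.5%), 2 lower (all genes, 42.5%) and 1 not passed.

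The rest of the mitochondrial translation apparatus followed the members at some steps and not at others. Of 18 translation factors tested, 16 were higher in MEP than in CMP (all genes tested, 34.1%) and 0 lower (all genes, 44.3%). By edgeR 0 were lower at an unadjusted p under 0.05 too, and 0 by DESeq2 and limma-voom. From GMP to CD11b+ cells 13 were lower (all genes, 32.8%) and 2 higher (all genes, 41.3%). Library size alone gave 7 higher and 9 lower in the first of these comparisons. Tufm, the elongation factor that brings charged tRNA to the ribosome, was 434 ± 7.58 CPM in MEP, 403 ± 16.3 in GMP, 130 ± 1.41 in CMP and 64.4 ± 2.58 in CD11b+ cells. Gfm1, the translocase, was 136 ± 6.76 CPM in MEP and 53.2 ± 0.38 in CMP. From CLP to B220+ cells 7 factors were higher (all genes, 39.5%) and 9 lower (all genes, 42.5%), with a median of -0.08 beside 0.75 for the members.

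Of 17 mitochondrial aminoacyl-tRNA synthetases, which charge tRNAs for this ribosome, 16 were higher in MEP than in CMP (all genes tested, 34.1%), with a median of 1.18. From GMP to CD11b+ cells 17 were lower (all genes, 32.8%), with a median of -1.27. Library size alone gave 9 higher and 6 lower in the first comparison, and 16 lower in the second. Iars2 was 243 ± 6.66 CPM in MEP and 56.7 ± 0.65 in CMP. Ears2 was 3.76 ± 0.03 CPM in CD11b+ cells and 22.8 ± 1.23 in GMP. In B220+ cells against CLP 6 were higher (all genes, 39.5%) and 7 lower (all genes, 42.5%). Vars2 led with a log2 fold change of -1.41, which was -0.39 with the trend on length and GC content taken out.

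Among 22 assembly factors, 19 were higher (all genes tested, 34.1%) and 3 lower (all genes, 44.3%) in MEP than in CMP with TMM. By library size alone 8 were higher and 12 lower. Mrm2, a methyltransferase of the large ribosomal RNA, was 26.0 ± 1.79 CPM in MEP and 6.91 ± 0.25 in CMP, and Noa1, a GTPase, was 150 ± 4.14 and 42.5 ± 1.05. In B220+ cells against CLP 16 assembly factors were higher (all genes, 39.5%) and 4 lower (all genes, 42.5%). Among them were Nsun4, Ngrn and Mpv17l2 at 2.43-fold, 2.40-fold and 2.34-fold higher. Of the 9 genes for mitochondrial DNA transcription and replication, 8 were higher in MEP than in CMP with TMM (all genes, 34.1%). From GMP to CD11b+ cells the list split, with 6 lower (all genes, 32.8%) and 3 higher (all genes, 41.3%). Polg was among the 3 higher, at 51.4 CPM in GMP and 90.0 in CD11b+ cells. Polrmt, the RNA polymerase, was 87.9 ± 1.79 CPM in MEP, 79.7 ± 5.34 in GMP, 34.8 ± 0.23 in CMP and 20.05 ± 0.54 in CD11b+ cells. Tfam, which packages mitochondrial DNA, was 92.8 ± 0.56 CPM in MEP, 42.2 ± 0.77 in GMP and 58.0 ± 1.43 in CMP, so that its GMP level lay below that of CMP.

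The messages this ribosome translates did not track its protein genes everywhere. Mitochondrially encoded genes took 5.41% ± 0.0122 of the counts in CMP, 3.86% ± 0.0863 in MEP, 1.20% ± 0.0162 in GMP and 0.460% ± 0.007 in CD11b+ cells. These are plain shares, with no scaling between libraries. With TMM, 9 of the 13 mitochondrial mRNAs were higher in MEP than in CMP (all genes tested, 34.1%) and 3 lower (all genes, 44.3%). The median of that comparison was 0.47. Of the 13 mitochondrial mRNAs, 0 were higher (all genes tested, 31.8%) and 10 lower (all genes, 41.9%) in GMP than in CMP. By edgeR 0 were higher at an unadjusted p under 0.05 too, and 0 by DESeq2 and by limma-voom. Their median was -1.48, where 71 members were higher with TMM. By library size alone 12 of the 13 were lower. From GMP to CD11b+ cells 10 were lower (all genes, 32.8%) and 0 higher (all genes, 41.3%). Again 0 were higher at an unadjusted p under 0.05 by edgeR and 0 by DESeq2 and limma-voom. From CLP to B220+ cells 8 were lower (all genes, 42.5%) and 2 higher (all genes, 39.5%), with a median of -0.89, where 71 members were higher. The most abundant of the mRNAs hardly moved, with log2 changes of -0.06 for mt-Co1, 0.05 for mt-Cytb and -0.02 for mt-Nd1. The next, mt-Nd5, fell by 0.89, from 2171 to 1170 CPM. All 13 were higher in MEP than in GMP (all genes, 31.3%). Values of single mitochondrial genes varied between libraries, as for mt-Co3 in MEP at 449 ± 234 CPM, and near-identical copies in the nuclear genome make their counts uncertain.

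**Figure D5:**
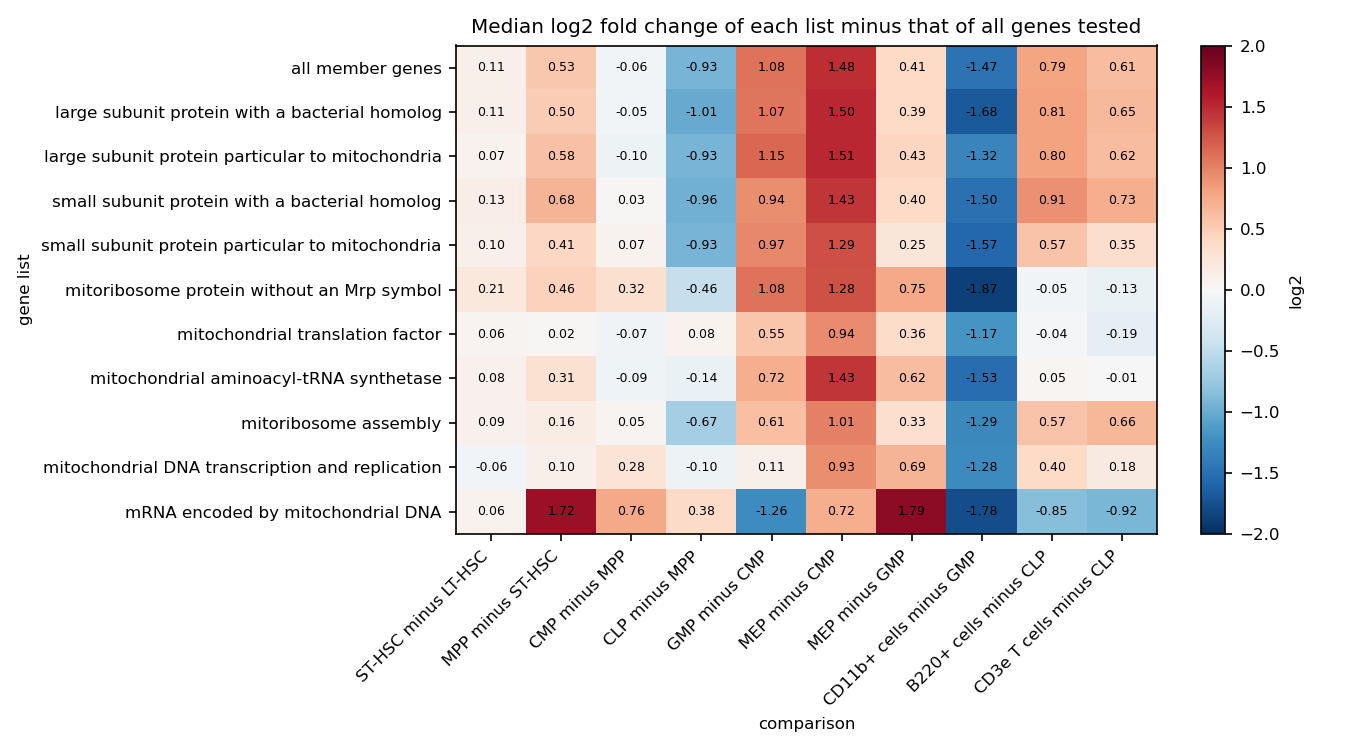
Median log2 fold change of each gene list minus the median of all genes tested, for 10 comparisons. The members and their subunit classes rise in MEP against CMP (1.48 for all members) and fall in CD11b+ cells against GMP (-1.47). The median of the mitochondrially encoded mRNAs goes the other way in GMP against CMP (-1.26, members 1.08). It also does so in B220+ cells against CLP (-0.85, members 0.79), where the most abundant of these mRNAs hardly moved.

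Mrpl53 was the member that failed the filter, with 0 counts in every library. In the annotation used here 88.0% of its exon bases lie inside another gene on the same strand, Gm42688, and HTSeq in its default mode leaves reads shared by such genes uncounted. The mode used is not stated and its part was not tested, so 0 counts cannot be read as absence of the message. Mrps25 (69.8% of exon bases), Mrps34 (63.4%) and Mrpl19 (36.0%) overlap genes on the other strand, and the sources used here do not say whether counting used strand, so their values are less certain. On the same strand, Mrps34 overlaps Nme3 (37.0%) and Mrps24 overlaps Urgcp (15.4%). Mrps6, named in several comparisons, overlaps Gm49711 (19.9%) and Slc5a3 (10.4%) on its own strand. Mrpl33 shares 261 exon bases with Gm43809 on its own strand. That is 3.56% of its exon bases, but its median transcript has only 478 bases. The counts of these members are less certain too.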

How the data were processed

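Per the labels' protocols, polyadenylated RNA of 11 mouse bone marrow populations was sequenced, 3 libraries each. The deposited table holds raw counts per gene, which the authors made with tools that their processing notes list as cutadapt, HISAT2, HTSeq and DESeq2, on mm39. The sources used here give no versions, annotation release or strandedness. All 33 columns matched a library by name. Library totals ran from 11997186 to 32022325 counts, and replicates differed by more than counting noise (chi-square per gene 1.15 to 3.73), so none was counted as a duplicate. Symbols came from GENCODE M21, an annotation of GRCm38, for 52073 of 56748 IDs, as did transcript lengths, GC content and exon overlaps. Promoter windows came from RefSeq on GRCm38.p6, with chr18 left out. No coordinate of one build was joined to another.

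Genes with low counts were removed by filterByExpr. The rest were scaled by TMM, and a model with 1 mean for each population was fitted with edgeR 4.0.16 (robust quasi-likelihood, R 4.3.3). Fold changes, SE and Benjamini-Hochberg adjusted p over 20464 genes come from this fit, with 0.05 as threshold. The spread between replicates was small, so small changes passed, and some counts at 2-fold in estimate are also given. The fit was tested on simulated data. Every count was recomputed with DESeq2 1.42.0, limma-voom (limma 3.58.1), library size in place of TMM, relative log expression factors, no filter, only the populations of the comparison, replicate blocks, each library left out, and a per-library trend on length and GC content taken out (both known for 96.5% of genes and for all members).

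The members and lists were chosen with earlier results of these data known, and no list was tested as a set. Named are the 3 largest rises and falls of each comparison (past the threshold, 10 CPM or more in the higher population, replicates without overlap), the 5 most and least variable members, 14 genes by role, and up to 3 genes of each related list. Mtrfr had no match in the table. Mrpl20 and Mrpl42, named for level per kilobase, and Mrps34 as an exception were chosen after their values were seen, as were genes named for exon overlap.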

Additional observations from a re-analysis of the deposited data

Results flagged for a closer look

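The maturation steps differed by the test of the difference itself, which followed from their opposite signs. The libraries compared also differed in marker sums, as given above, and the part of these was not tested. Of the 77 tested genes, 75 had a lower log2 change from GMP to CD11b+ cells than from CLP to B220+ cells (all genes tested, 32.5%), and 2, Mrpl33 and Mrpl24, had a higher one (all genes, 42.1%). The Mrpl24 call was lost without replicate 1 of GMP, of CLP or of CD11b+ cells.

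Pseudogenes, which lay outside the gene set, also carried counts. Mrpl23-ps1 held 2742 counts over the 33 libraries, with some in every library, and its mean level ran from 0.421 CPM in CLP to 12.9 CPM in GMP. Mrps36-ps1 held 109 counts and Mrps36-ps2 held 24. Reads of a parent gene and its near-identical copy may be split by the counting, so the values of Mrpl23 and Mrps36 are less certain.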

How the results depend on the processing

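Scaling mattered most. By library size alone, members higher and lower were 3 and 71 in MPP against ST-HSC (median -0.57), 76 and 1 in CMP against MPP (median 0.63, with Mrpl12 at 0.12 and Mrps12 at 0.13), and 12 and 52 in GMP against CMP (median -0.31). It also gave 19 higher in CLP against MPP, 18 lower in MEP against CMP, 4 lower in MEP against GMP, 3 higher in CD11b+ cells against GMP and 15 lower in CD3e T cells against CLP. With the trend on length and GC content taken out, 10 were lower in ST-HSC against LT-HSC, 38 higher and 25 lower in MPP against ST-HSC, 56 and 13 in CMP against MPP (median 0.27, and 0.064 above all genes), 12 higher in CLP against MPP, 10 lower in GMP against CMP, 1 lower in MEP against CMP, 3 lower in MEP against GMP (Mrpl4 at 0.061), 3 higher in CD11b+ cells against GMP and 17 lower in CD3e T cells against CLP. Small counts moved elsewhere. Relative log expression factors gave 3 lower in ST-HSC against LT-HSC, 8 lower in MPP against ST-HSC and 2 higher in CD11b+ cells against GMP, and DESeq2 gave 6 and 2 for the last pair. Without the filter 5 were lower in MPP against ST-HSC and 1 higher in the difference of the maturation steps. Leaving out each library gave 2 to 4 lower in MPP against ST-HSC (4 without replicate 1 of ST-HSC), 1 to 2 higher in CD11b+ cells against GMP (2 without replicate 2 of GMP) and 1 to 2 higher in the difference of the maturation steps (1 without replicate 1 of GMP, CLP or CD11b+ cells). The cause was not tested.

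The replicate number as a block gave 70 members higher in GMP against CMP in place of 71 and changed no other count. Deviations of same-numbered libraries correlated between -0.0309 and 0.0808, and those of different-numbered ones between -0.055 and 0.0596. The main fit did not pair samples by number. Yet 23 of 33 libraries correlated best with their own number, more than an even spread over the 3 numbers would give. What libraries of the same number share was not tested. Of the 3 largest rises and falls of each comparison, under the alternatives that keep all libraries, 500 values kept direction and side of the threshold, 3 reversed (Mrpl12, Mrps12 and Mrpl4 above) and 1 weakened, Mrpl24 in the difference of the maturation steps without the filter. Over all members, 185 of 671 changes that passed took the other sign by library size alone, 92 with the trend taken out and 0 with relative log expression factors. The joint test over populations was not run by DESeq2 or limma-voom. Depth limited few values, since 76 of 77 members averaged 10 CPM or more.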
